A study of Homo sapiens with 96 samples.

Results

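The BCL2 family of apoptosis regulators was followed here through 10 genes, BCL2L11, BMF, BBC3, PMAIP1, BIK, MCL1, BCL2L1, BCL2, BAX and BAK1. Members were taken as the probe sets annotated to these genes, with 1 probe set kept per gene, the one with the highest mean over the arrays of the HaCaT constructs. Of the 10 genes, 9 had a probe set of their own, out of 19775 genes measured. The annotation of the BBC3 probe set also names microRNAs, so BBC3 has no value here. Affymetrix human U133 Plus 2.0 arrays were hybridised with RNA of 96 samples, 89 of them from construct lines of HaCaT, an immortalized human keratinocyte line. HaCaT cells carried a lentiviral vector for wild-type EGFR (HaCaT-EGFR), for an activating HRAS mutant (HaCaT-HRAS) or for an activating PIK3CA mutant (HaCaT-PIK3CA), or were the HaCaT-Mock control. All values are log2 expression levels, so a difference of 1 is a doubling. Levels of different genes come from different probes and cannot be ranked against each other.

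Each line was exposed to 10 nM afatinib, an irreversible inhibitor of ERBB family kinases, to 100 nM gefitinib, a reversible EGFR kinase inhibitor, to 100 nM cetuximab, an antibody against the EGFR ectodomain, or to PBS. These groups held 3 arrays each, except HaCaT-PIK3CA under gefitinib and HaCaT-EGFR under PBS with 2. EGFR was also silenced with siRNA (siEGFR), against scramble siRNA, with 3 arrays per line and arm. A further set combined scramble siRNA with an inhibitor (1 array per line and drug) or with PBS (2 arrays per line, 1 in HaCaT-Mock). The head and neck carcinoma lines SCC1 (2 arrays), SCC25 (2) and FaDu (2) and parental HaCaT cells (1) completed the set. The labels name PBS for 1 FaDu array, that of batch P, and no treatment for the other arrays of these lines. The arrays came in batches, labelled J (53 arrays), E (16), M (26) and P (1 FaDu array). The constructs were driven by a viral (CMV) promoter and carrying cells were selected with puromycin, so expression of each gene was not under its own control. Nothing in the labels says that replicates came from separate cultures, so the spread behind each p-value may be technical only.

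The BCL2 family sets whether mitochondria release cytochrome c and so start the caspase cascade. BH3-only proteins such as BIM (the product of BCL2L11), BMF, PUMA (BBC3), NOXA (PMAIP1) and BIK sense stress and loss of growth factor signals. They are held by the anti-apoptotic members MCL1, BCL-XL (BCL2L1) and BCL2. BAX and BAK1 form the pores in the outer mitochondrial membrane. In epithelial cells BIM is kept low by EGFR signalling, since ERK marks the protein for degradation and AKT keeps FOXO factors, which act on the gene, out of the nucleus. MCL1 and NOXA are short-lived and NOXA binds MCL1 in preference to other partners.

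The sequences just upstream of the start site are shown for 3 members on which the results below turn, BCL2L11, PMAIP1 and BAX (RefSeq, GRCh38.p14, each printed 5′ to 3′ on the plus strand, which is the strand of all 3 genes). Capitals mark matches to the motifs searched. BCL2L11 lies at chr2:111120914-111168445, PMAIP1 at chr18:59899996-59904305 and BAX at chr19:48954875-48961798. The others lie at chr15:40087890-40108879 (BMF), chr22:43110750-43129712 (BIK), chr1:150574558-150579610 (MCL1), chr20:31664452-31723963 (BCL2L1), chr18:63123346-63320090 (BCL2) and chr6:33572552-33580276 (BAK1).
BCL2L11, chr2:111120664-111120913: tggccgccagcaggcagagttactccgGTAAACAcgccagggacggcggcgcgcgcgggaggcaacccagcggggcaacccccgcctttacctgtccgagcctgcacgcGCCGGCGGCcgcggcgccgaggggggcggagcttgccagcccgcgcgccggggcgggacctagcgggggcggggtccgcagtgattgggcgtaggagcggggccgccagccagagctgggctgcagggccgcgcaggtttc
PMAIP1, chr18:59899746-59899995: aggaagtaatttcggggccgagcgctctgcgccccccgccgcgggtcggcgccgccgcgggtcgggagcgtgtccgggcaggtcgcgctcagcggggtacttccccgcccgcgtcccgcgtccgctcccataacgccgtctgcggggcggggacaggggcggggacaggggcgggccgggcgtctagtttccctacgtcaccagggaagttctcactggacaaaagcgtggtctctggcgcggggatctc
BAX, chr19:48954625-48954874: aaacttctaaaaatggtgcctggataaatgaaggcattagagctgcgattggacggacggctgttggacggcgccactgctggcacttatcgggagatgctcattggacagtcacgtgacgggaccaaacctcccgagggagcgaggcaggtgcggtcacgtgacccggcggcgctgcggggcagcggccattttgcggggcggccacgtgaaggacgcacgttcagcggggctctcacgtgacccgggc
The motifs searched on both strands were TGTTTAC (bound by FOXO factors), GCCNNNGGC (AP-2), TGANTCA (AP-1) and TGACGTCA (CRE), in windows from 250 bases before to 50 bases after the start. Of the 10 genes, 8 matched the promoter table, with 10 windows. BCL2L11 held the FOXO letters on the minus strand, read as GTAAACA on the plus strand at chr2:111120691-111120697, position -223 from the start, and these letters occurred in 3.42% of 35116 promoter windows. The AP-2 letters occurred in BCL2L11, BCL2 and BAK1 and in 23.2% of all windows. AP-1 letters occurred in BBC3 (7.71% of all windows) and CRE letters in no member (1.85%). No match to these 4 motifs was found in the windows of PMAIP1, BAX, BMF or BCL2L1. The upstream 250 bases of BCL2L11 were 76.8% G and C, those of PMAIP1 72.8% and those of BAX 62.8%, against a median of 58.0% over all windows. A match is a description of letters and not a bound site.

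Before the comparisons, each HaCaT array was placed between the PBS arrays (position 0) and the scramble siRNA arrays (position 1) of batch J, over the 200 genes that differed most between those arrays in HaCaT-EGFR, HaCaT-HRAS and HaCaT-PIK3CA. In this check 6 arrays lay against their siRNA label, by limits set after the values had been seen. The 4 HaCaT-Mock arrays of batch E, labelled as having had no siRNA, lay at 1.12 (PBS), 0.83 (afatinib), 0.943 (gefitinib) and 1.11 (cetuximab). HaCaT-PIK3CA afatinib replicate 1, also labelled without siRNA, lay at 1.11, and the library labelled HaCaT-Mock scramble siRNA with PBS lay at -0.079. All other arrays labelled without siRNA lay at 0.464 or below. Arrays with siEGFR were not judged in this way. The lowest of them lay at 0.279, so the scale does not part all arrays with siRNA from those without. All other arrays of batch E had scramble siRNA, so for the 4 batch E arrays batch and siRNA state cannot be told apart. Labels were kept as given, and where leaving these 6 arrays out ended or added a member's call, the value without them is given. PMAIP1 itself differed between scramble siRNA and PBS (-0.96, below), and so did BCL2L11, MCL1, BAK1 and BIK, by less. Calls of these members without the 6 arrays are thus not independent of how the arrays were picked. Where plotted, these arrays are drawn as open symbols. HaCaT-HRAS gefitinib replicate 1 also stood apart, with an ACTB 3′ signal 3.5 above the 5′ signal. In a fit with array weights HaCaT-HRAS gefitinib replicates 1 and 2 had the lowest weights of the HaCaT arrays (0.0578 and 0.02).

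The keratinocyte markers KRT5, KRT14, SFN, CDH1 and DSG3 had medians of 11.58, 12.65, 13.31, 11.38 and 9.44 over the HaCaT arrays, where the median gene mean was 6.10. Median levels of 14 markers of fibroblasts, endothelium, leukocytes and melanocytes lay between 3.59 (LYZ) and 7.25 (COL1A1). Under the inhibitors all 5 keratinocyte markers rose (KRT5 by 1.06, DSG3 by 0.73) together with 2 of 3 endothelial markers (VWF by 0.71 and CDH5 by 0.60), and their part in the family's changes was not tested. After siEGFR, EGFR itself fell, with differences of -1.71 in HaCaT-EGFR, -1.97 in HaCaT-HRAS, -1.89 in HaCaT-PIK3CA and -2.11 in HaCaT-Mock and with all 3 siEGFR arrays below all 3 scramble arrays in each line.

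Differences below are from 1 linear model of all 89 HaCaT arrays that also holds the batch, and a gene is said to rise or fall only at an adjusted p (limma, Benjamini-Hochberg over all genes) under 0.05. The share of all genes that passed in a comparison is given beside the count of members.

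EGFR inhibition was tested first as the mean of the 3 inhibitors against PBS over the 4 lines. BCL2L11, BIK, MCL1 and BMF rose and BAX fell, which makes 5 of 9 members, where 39.2% of all genes passed. BCL2L11 rose most, by 0.51 ± 0.034 (SE, adjusted p = 7.3e-19), a 42.7% higher signal. These are bulk RNA samples, in which a change in each cell and a change in the share of cells cannot be told apart. BIK rose by 0.20 (adjusted p = 2.5e-06), MCL1 by 0.14 (0.0065) and BMF by 0.14 (0.027), and BAX fell by 0.32 (6.3e-06). PMAIP1 (-0.19, adjusted p = 0.081), BCL2 (-0.07), BCL2L1 (-0.03) and BAK1 (0.01) did not pass. Without the 6 arrays against their label PMAIP1 passed as lower (-0.16, 0.033) and BMF no longer passed (0.13, 0.05), so that the count stayed at 5 with PMAIP1 in place of BMF. BMF also did not pass without PBS replicate 2 of HaCaT-EGFR or HaCaT-PIK3CA or replicate 3 of HaCaT-HRAS or HaCaT-Mock (up to 0.12). Within batch J the differences were 0.49 for BCL2L11, 0.24 for BIK, 0.15 for MCL1, 0.12 for BMF and -0.36 for BAX, of which MCL1 (adjusted p = 0.061) and BMF (0.18) did not pass there.

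BCL2L11 encodes BIM, a BH3-only protein that binds every anti-apoptotic member. In HaCaT-EGFR its level was 8.504, 8.51 and 8.27 under afatinib, 8.42, 8.51 and 8.28 under gefitinib and 8.25, 8.33 and 8.12 under cetuximab, against 7.75 and 7.84 under PBS. All 9 inhibitor arrays of HaCaT-EGFR lay above both PBS arrays, a difference of 0.63 ± 0.075 (adjusted p = 1.7e-09). In HaCaT-Mock the inhibitor arrays ran from 7.98 over a median of 8.43 to 8.98, against 7.77, 7.62 and 8.07 under PBS. Here 8 of 9 inhibitor arrays lay above all PBS arrays and the difference was 0.72 ± 0.064 (1.9e-13). The highest HaCaT-Mock arrays under each treatment were those of batch E, and the difference was 0.71 within batch J and 0.72 within batch E.

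BCL2L11 also rose in the lines with a mutant downstream of the receptor. In HaCaT-PIK3CA the inhibitor arrays ran from 7.86 over 8.09 to 8.22, against 7.82, 7.70 and 7.45 under PBS, all 8 above the PBS arrays (0.44 ± 0.065, adjusted p = 5.3e-07). In HaCaT-HRAS they ran from 7.78 over 7.93 to 8.10, against 7.67, 7.89 and 7.46 under PBS. Only 5 of 9 HaCaT-HRAS inhibitor arrays lay above all PBS arrays, and the difference was 0.26 ± 0.064 (0.0078), with 0.21 in batch J and 0.36 in batch M. It did not pass without HaCaT-HRAS PBS replicate 1 or without replicate 3 (adjusted p up to 0.12), in batch J alone (0.21), in a model without the batch (0.39) or with the probe set of the largest ratio of the spread between groups to that within groups (0.31, adjusted p = 0.11), which is the probe set rule of the study. The response in HaCaT-HRAS was different from that in HaCaT-Mock by -0.465 ± 0.091 on the log2 scale (95% interval -0.65 to -0.28, adjusted p = 2.6e-04), and BCL2L11 was the only 1 of 9 members to pass, where 9.53% of all genes differed in their response. The keratinocyte markers DSG3 (-0.93) and KRT5 (-0.58) and the endothelial marker CDH5 (-0.80) also responded less in HaCaT-HRAS, and their part in the result was not tested. The response in HaCaT-PIK3CA differed from that in HaCaT-Mock by -0.28 (0.28, 0.142% of all genes) and the response in HaCaT-EGFR by -0.09 (0.93, 0.0708%), and no member passed in these 2 limma tests, in which 1641 and 1405 of all genes had an unadjusted p under 0.05.

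**Figure D1:**
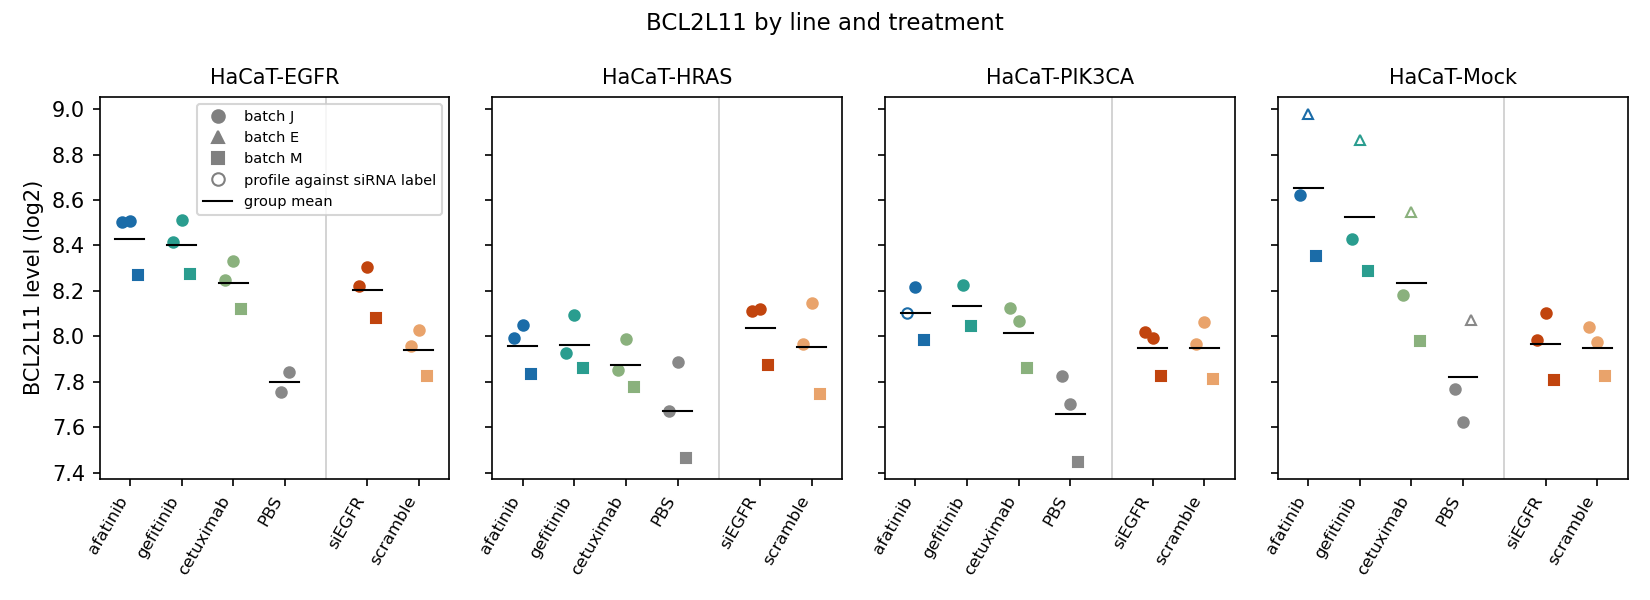
BCL2L11 level (log2) on every array of the 4 HaCaT lines under afatinib, gefitinib, cetuximab and PBS, and with siEGFR and scramble siRNA. Symbols give the batch, open symbols mark arrays whose profile goes against their siRNA label, and bars are group means. In HaCaT-EGFR all 9 inhibitor arrays lie above both PBS arrays, and in HaCaT-HRAS 5 of 9 do.

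BCL2L11 had 7 probe sets, and all had a difference above 0 under the inhibitors over the 4 lines (0.11 to 0.51), with 6 of 7 past the threshold over all probe sets. The smaller response of HaCaT-HRAS was seen with the probe set used here alone, since the other 6 gave differences between -0.17 and 0.14 and none passed. Those 6 probe sets had lower mean levels, between 4.33 and 7.84, against 8.12 for the one used. The difference also did not pass in a model without the batch (-0.39, adjusted p = 0.22).

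BMF, a BH3-only protein tied to the cytoskeleton until detachment or stress, had a level below the median gene (5.79) and would be lost under a filter at that level. In HaCaT-Mock it ran from 5.58 over 5.93 to 6.32 under the inhibitors, against 5.51, 5.56 and 5.79 under PBS, and rose by 0.28 (adjusted p = 0.023). Of the 9 inhibitor arrays 6 lay above all PBS arrays. Without the 6 arrays against their label the difference was 0.21 (0.23), and the call was also lost without PBS replicate 1 (0.07), PBS replicate 3 (0.14) or gefitinib replicate 2 (0.053). In HaCaT-EGFR (0.20), HaCaT-PIK3CA (0.11) and HaCaT-HRAS (-0.04) BMF did not pass.

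BIK, a BH3-only protein of the endoplasmic reticulum, rose in the 3 lines with a construct. In HaCaT-EGFR it ran from 8.97 over 9.19 to 9.26 under the inhibitors, against 8.96 and 8.67 under PBS (0.30, adjusted p = 0.0016), with all 9 inhibitor arrays above both PBS arrays. In HaCaT-HRAS it ran from 9.31 over 9.43 to 9.58, against 9.20, 9.08 and 9.36 under PBS (0.22, 0.027, 7 of 9 above). In HaCaT-PIK3CA it ran from 8.83 over 9.18 to 9.22, against 8.96, 8.73 and 8.95 under PBS (0.24, 0.0058, 7 of 8 above). In HaCaT-Mock no inhibitor array lay above all PBS arrays (0.03, 0.79). The responses did not pass as different from HaCaT-Mock in any of the 3 lines (adjusted p 0.23 to 0.54).

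BAX, a pore-forming effector, fell under the inhibitors. In HaCaT-EGFR it ran from 6.85 over 7.23 to 7.49, against 7.69 and 7.94 under PBS, all 9 arrays below both PBS arrays (-0.54 ± 0.131, adjusted p = 0.001). In HaCaT-PIK3CA it ran from 7.39 over 7.47 to 7.91, against 7.85, 7.998 and 7.79 under PBS (-0.34, 0.026, 7 of 8 below). The array within the PBS range was afatinib replicate 1, which lay against its label. The HaCaT-PIK3CA call was lost on leaving out afatinib replicate 2, cetuximab replicate 2, gefitinib replicate 1, PBS replicate 2 or PBS replicate 3 (adjusted p up to 0.15). In HaCaT-HRAS it ran from 7.71 over 7.91 to 8.22, against 8.24, 8.01 and 8.02 under PBS (-0.18, 0.44, 7 of 9 below). In HaCaT-Mock it ran from 6.96 over 7.37 to 7.88, against 7.92, 7.70 and 7.67 under PBS (-0.25, 0.099). Without the 6 arrays against their label HaCaT-Mock passed as well (-0.45, 0.0049), and the difference was -0.42 in batch J and 0.13 in batch E, whose 4 arrays are among those 6. Both BAX probe sets fell over the 4 lines, with differences of -0.32 and -0.38. BAK1, the other pore-forming effector, differed by no more than 0.10 between inhibitors and PBS in any line.

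MCL1, the anti-apoptotic partner of NOXA, rose in HaCaT-EGFR, where it ran from 11.06 over 11.40 to 11.48 under the inhibitors, against 11.03 and 11.05 under PBS (0.29, adjusted p = 0.016). All 9 arrays lay above both PBS arrays, cetuximab arrays (11.23, 11.21, 11.06) closest to them. In HaCaT-HRAS 4 arrays lay above and 5 below the PBS arrays, and the differences were 0.12 in HaCaT-PIK3CA and 0.15 in HaCaT-Mock, none of which passed. Without the arrays against their label, of which HaCaT-PIK3CA holds afatinib replicate 1, MCL1 rose in HaCaT-PIK3CA (0.18, 0.033). The HaCaT-EGFR call was lost in batch J alone (0.057) and in a model without the batch (0.054). Of the 6 MCL1 probe sets all had a difference above 0 over the 4 lines (0.01 to 0.21), and 1 passed. BCL2L1 and BCL2 did not pass in any line, with differences from -0.14 to 0.15 and from -0.18 to 0.04.

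PMAIP1 encodes NOXA, a BH3-only protein. It lay lower under the inhibitors on all 9 arrays of HaCaT-EGFR, from 9.87 over 10.04 to 10.19, against 10.41 and 10.35 under PBS, but the difference of -0.30 did not pass (adjusted p = 0.28). In HaCaT-Mock it ran from 8.63 over 9.94 to 10.07 under the inhibitors, against 10.35, 10.35 and 8.86 under PBS, and the low values of both sets were the batch E arrays.

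By line, members changed under the inhibitors numbered 4 of 9 in HaCaT-EGFR (26.4% of all genes passed), 2 of 9 in HaCaT-HRAS (6.01%), 3 of 9 in HaCaT-PIK3CA (20.3%) and 2 of 9 in HaCaT-Mock (28.7%). HaCaT-EGFR had 2 PBS arrays, and without replicate 2 BIK, MCL1 and BAX no longer passed there, which left BCL2L11 alone (0.67), and without replicate 1 MCL1 did not pass (adjusted p = 0.14). In HaCaT-HRAS the BIK call was lost without any 1 of the 3 PBS arrays, and without HaCaT-PIK3CA PBS replicate 2 only BCL2L11 remained past the threshold in that line. In batch J alone BIK passed in neither of these lines (0.2 in HaCaT-HRAS, 0.15 in HaCaT-PIK3CA), nor did BAX in HaCaT-PIK3CA (0.14).

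**Figure D2:**
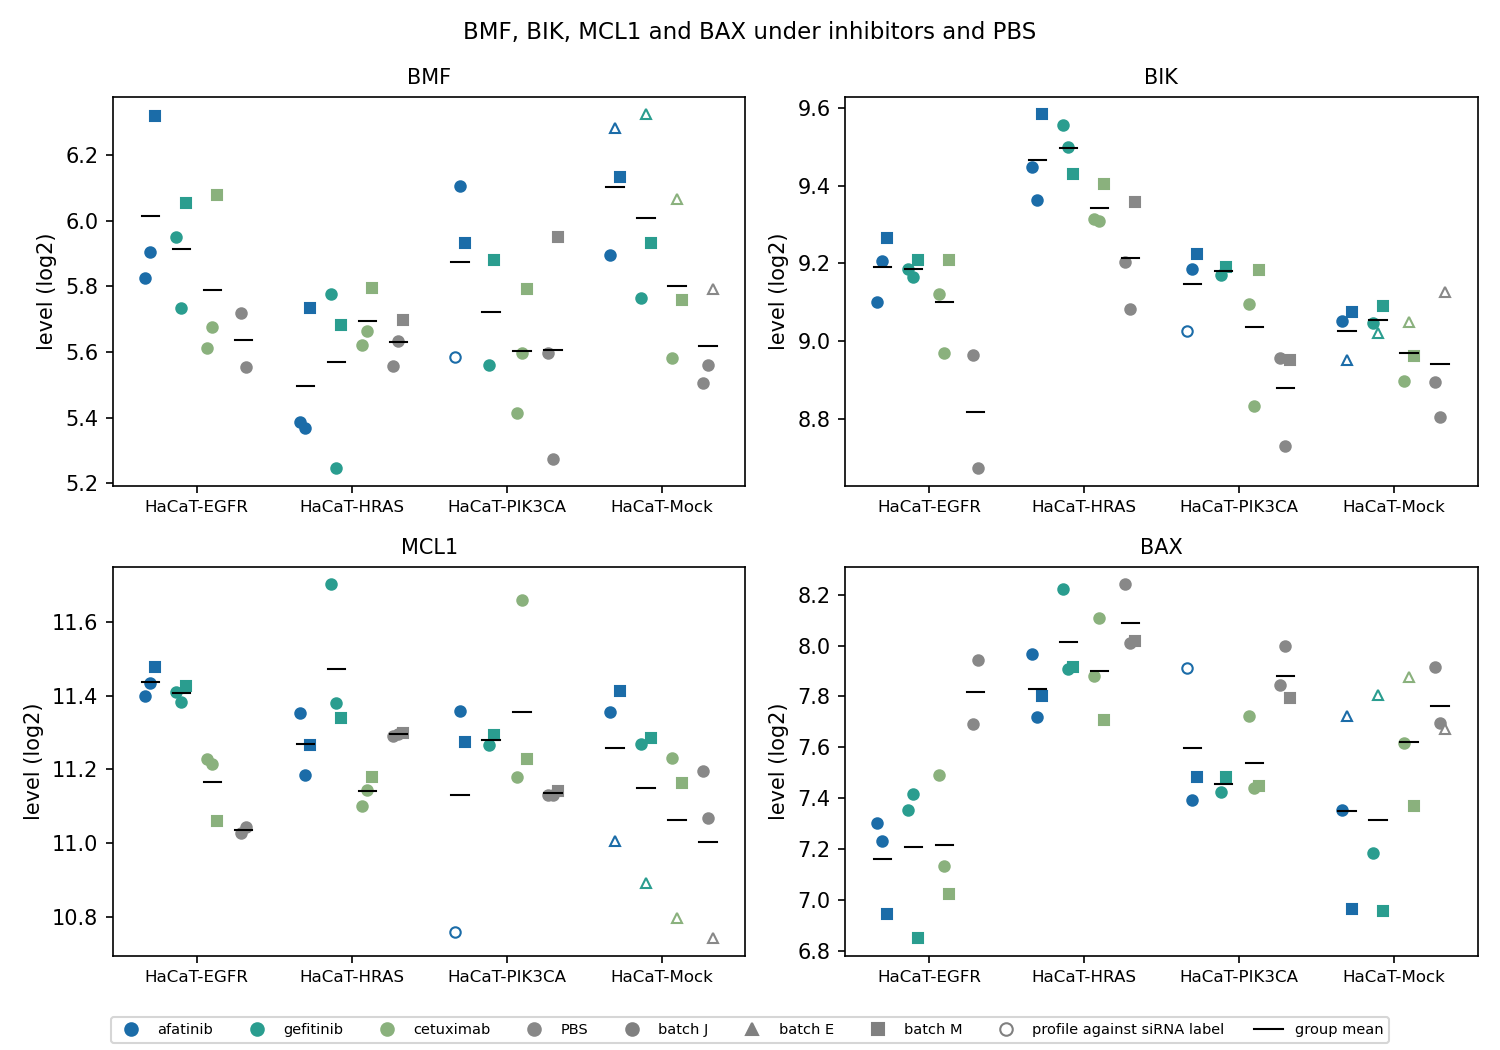
BMF, BIK, MCL1 and BAX levels (log2) on every array without siRNA, by line, with afatinib, gefitinib, cetuximab and PBS side by side. Symbols give the batch, open symbols mark arrays against their siRNA label, and bars are group means. BAX lies below both PBS arrays on all 9 inhibitor arrays of HaCaT-EGFR, where BIK and MCL1 lie above them.

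Given singly, over the 4 lines, afatinib changed 5 of 9 members (37.1% of all genes), gefitinib 4 (37.5%) and cetuximab 3 (28.8%), and these comparisons share their PBS arrays. BCL2L11 rose by 0.58 under afatinib, 0.56 under gefitinib and 0.39 under cetuximab. BIK rose by 0.22, 0.24 and 0.13 and BAX fell (-0.36, -0.33 and -0.27), in the same order of drugs. Without HaCaT-EGFR PBS replicate 2 BIK no longer passed under cetuximab (0.12), nor MCL1 under afatinib without HaCaT-PIK3CA afatinib replicate 2 (0.056). MCL1 rose under afatinib (0.15) and gefitinib (0.21) and not under cetuximab (0.06, adjusted p = 0.45). BMF rose under afatinib (0.21, 0.0037) and not under gefitinib (0.14, 0.091) or cetuximab (0.06, 0.52). In batch J alone the afatinib differences of MCL1 (0.13) and BMF (0.20) and the cetuximab difference of BIK (0.14) did not pass. HaCaT-Mock had 1 array per inhibitor there. PMAIP1 passed under gefitinib without the arrays against their label (-0.19, adjusted p = 0.036).

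The drugs were then compared with each other in 3 pairs, at the single concentration used for each, which was 10 nM for afatinib and 100 nM for the others. The doses of afatinib and of the others differ, so these are differences between the treatments as given. Cetuximab, the antibody, gave a lower BCL2L11 level than afatinib (-0.19, 95% interval -0.27 to -0.12, adjusted p = 2.5e-04, 13.2% of all genes passed) and than gefitinib (-0.18, interval -0.26 to -0.09, 0.0024, 10.8%), with -0.21 and -0.16 in batch J and -0.18 and -0.18 in batch M. The difference from gefitinib did not pass in batch J alone (adjusted p = 0.14), and neither difference passed in a model without the batch (0.097 from afatinib, 0.25 from gefitinib). By the probe set rule of the study the difference from afatinib was -0.105 (0.42). Gefitinib and afatinib, the kinase inhibitors, did not differ past the threshold in any member by limma (0.485% of all genes, 1885 with an unadjusted p under 0.05), and for BCL2L11 the interval of gefitinib minus afatinib was -0.10 to 0.06. With the 6 arrays against their label left out, cetuximab was also below afatinib in BIK (-0.12), MCL1 (-0.14) and BMF (-0.19), and below gefitinib in BIK (-0.13) and MCL1 (-0.14).

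The inhibitors were tested again among arrays that all had scramble siRNA, 12 inhibitor against 7 PBS arrays that enter no comparison above. BCL2L11 rose by 0.41 ± 0.050 (adjusted p = 8.9e-09) and BMF by 0.25 (0.015), 2 of 9 members where 19.3% of all genes passed. In HaCaT-EGFR BCL2L11 was 8.74 with afatinib, 8.77 with gefitinib and 8.72 with cetuximab, against 8.16 and 7.94 with PBS. In HaCaT-HRAS it was 8.06, 8.13 and 8.03 in that order of drugs, against 7.90 and 7.84 with PBS. HaCaT-PIK3CA had 8.57, 8.54 and 8.32, against 8.03 and 7.99 with PBS, and HaCaT-Mock 9.07, 8.90 and 8.61, against 8.29 with PBS on the array that lay against its label. In every line each inhibitor array lay above the PBS arrays. BAX (-0.07, 0.69), BIK (-0.09, 0.27) and MCL1 (0.04, 0.77) did not pass in this set. Leaving out the array against its label, which leaves 3 lines, BCL2L11 rose by 0.51 and BMF did not pass (0.18, 0.2), nor did BMF without the second PBS array of HaCaT-HRAS (0.13) or of HaCaT-PIK3CA (0.088). With the replicate number as a block the differences were 0.04 for BCL2L11 (0.91) and 0.13 for BMF (0.87), where in 3 lines the inhibitor arrays, all numbered 1, share a block with the PBS array of batch J and not with that of their own batch. KRT5 (0.70) and CDH5 (0.55) rose in this set too, and their part was not tested. The arrays with an inhibitor are of batch E in 3 lines and of batch J in HaCaT-Mock.

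Knockdown of EGFR was tested against scramble siRNA. Over the 4 lines PMAIP1 rose with siEGFR, by 0.63 ± 0.100 (adjusted p = 8.4e-07), and was the only 1 of 9 members to pass, where 28.4% of all genes passed. In HaCaT-HRAS its level was 10.11, 10.14 and 9.91 with siEGFR, against 9.43, 9.42 and 9.06 with scramble (0.75, 0.012). HaCaT-PIK3CA had 9.96, 9.81 and 9.54 with siEGFR, against 9.16, 9.14 and 8.87 with scramble (0.72, 0.0099). HaCaT-EGFR had 10.02, 10.02 and 9.71, against 9.49, 9.56 and 9.14 with scramble (0.52, 0.097), and HaCaT-Mock 9.95, 9.64 and 9.55, against 9.39, 9.20 and 8.94 with scramble (0.53, 0.075). In each line all 3 siEGFR arrays lay above all 3 scramble arrays. On the scale from PBS (0) to scramble siRNA (1), siEGFR arrays of batch J lay at 0.279 to 0.435. Their scramble controls lay at 0.874 to 1.18 there. The PMAIP1 mean with siEGFR lay between the scramble and PBS means in each line, in HaCaT-HRAS at 10.05 between 9.30 and 10.21. A rise through siEGFR and a weaker form of the fall seen with scramble siRNA (below) cannot be told apart here. The rise was 0.61 in batch J and 0.68 in batch M, and both PMAIP1 probe sets rose (0.63 and 0.72). Without the 6 arrays, none of which is in this comparison but which share the model's spread, PMAIP1 passed in all 4 lines (largest adjusted p 0.0035). These arrays were picked on a scale between PBS and scramble siRNA, and PMAIP1 differs between those 2 states. Leaving them out lowered its SE over the 4 lines from 0.100 to 0.0655, so the smaller p-values are no separate support for the rise. The call was lost in HaCaT-HRAS without scramble replicate 3 (0.077) and in HaCaT-PIK3CA without siEGFR replicate 1 (0.064), and in batch J alone neither line passed (0.16 and 0.079). The keratinocyte marker CDH1 rose by 1.12 over the 4 lines, and its part was not tested.

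BCL2L11 rose with siEGFR in HaCaT-EGFR, with 8.22, 8.31 and 8.08, against 7.96, 8.03 and 7.83 with scramble siRNA (0.26, adjusted p = 0.02). Over the 4 lines it did not pass (0.09, 0.076), and no other line had a difference above 0.08. With the 6 arrays left out it passed over the 4 lines (0.09, 0.01), as did MCL1 in the other direction (-0.11, 0.026). None of those arrays is in this comparison, and both genes differ between scramble siRNA and PBS (below). These smaller p-values are thus no separate support either. The call in HaCaT-EGFR was lost on leaving out any of 4 of its 6 arrays (adjusted p up to 0.1), in batch J alone (0.11) and in a model without the batch (0.45). Without the batch term PMAIP1 did not pass in HaCaT-HRAS (0.33) or HaCaT-PIK3CA (0.25) either. Members changed numbered 1 in HaCaT-EGFR (9.46% of all genes), 1 in HaCaT-HRAS (6.29%), 1 in HaCaT-PIK3CA (11.6%) and 0 in HaCaT-Mock (10.8%, 4316 genes with an unadjusted p under 0.05). No member's siEGFR response differed past the threshold from that of HaCaT-Mock in HaCaT-EGFR (0.0101% of all genes), HaCaT-HRAS (0.0253%) or HaCaT-PIK3CA (0%) by limma, where 640, 945 and 453 genes had an unadjusted p under 0.05.

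Since siEGFR was set against scramble siRNA and the inhibitors against PBS, scramble siRNA was compared with PBS over the 4 lines, a comparison added after the values had been seen. PMAIP1 fell by 0.96 ± 0.104 (adjusted p = 1.3e-10) with scramble siRNA, to between 8.87 and 9.56, against 8.86 to 10.41 under PBS, where the 8.86 is the HaCaT-Mock array against its label and the other PBS arrays were at 9.90 or higher. MCL1 fell by 0.24 (2.7e-04), and BCL2L11 (0.26, 7.3e-07), BAK1 (0.22, 6.6e-04) and BIK (0.12, 0.021) rose, which makes 5 of 9 members where 27.1% of all genes passed. The BIK call was lost without any 1 of 4 arrays, HaCaT-EGFR PBS replicate 2 (0.16) among them. In batch J alone BIK (0.14) and BAK1 (0.063) did not pass. MCL1 probe sets disagreed, with differences from -0.24 to 0.46, and the BCL2L11 difference turned its direction by the probe set rule of the study (-0.146, 0.15). The inhibitor response was also set against the siEGFR response, again after the values had been seen. The inhibitor response minus the siEGFR response was above 0 for BCL2L11 (0.42), BIK (0.26) and MCL1 (0.25). It was below 0 for PMAIP1 (-0.82) and BAX (-0.28), which makes 5 of 9 members where 26.8% of all genes passed. BAX fell under the inhibitors (-0.32) and did not pass with siEGFR, while PMAIP1 rose with siEGFR (0.63) and did not pass under the inhibitors. By the probe set rule of the study the BCL2L11 difference was 0.07 (adjusted p = 0.68). In batch J alone MCL1 (0.054) and BAX (0.052) did not pass, and in a model without the batch BAX did not (0.057). The 2 responses have different controls, transfected and untransfected, and the part of this in the result was not tested.

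**Figure D3:**
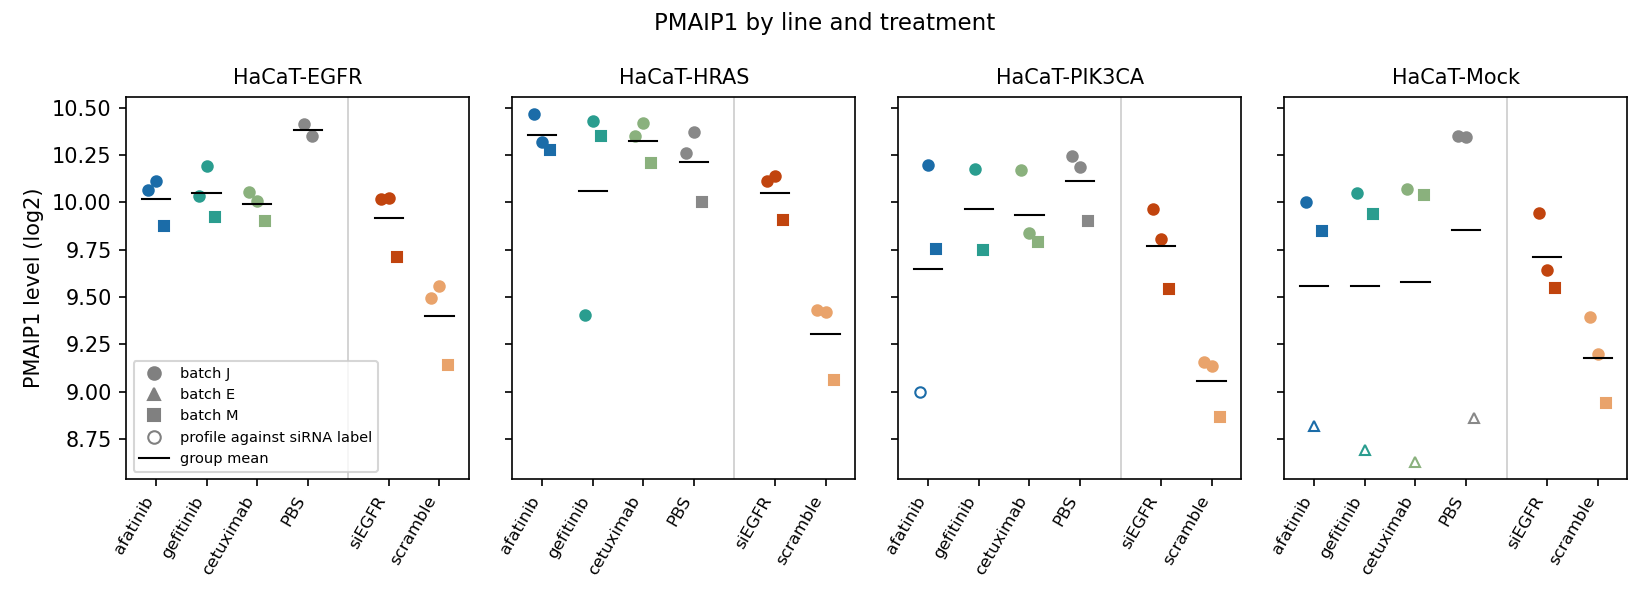
PMAIP1 level (log2) on every array of the 4 HaCaT lines under afatinib, gefitinib, cetuximab and PBS, and with siEGFR and scramble siRNA. Symbols give the batch, open symbols mark arrays against their siRNA label, and bars are group means. In each line the 3 siEGFR arrays lie above the 3 scramble arrays, and the open symbols lie at 9.0004 or lower.

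Without inhibitor, the constructs were set against HaCaT-Mock under PBS. In HaCaT-HRAS BCL2L1, BAX and BIK rose, 3 of 9 members where 16.1% of all genes passed. BCL2L1, the gene of anti-apoptotic BCL-XL, was 9.07, 9.15 and 9.59 in HaCaT-HRAS, against 8.54, 8.57 and 8.68 in HaCaT-Mock, without overlap (0.60 ± 0.095, adjusted p = 2e-06). BIK was 9.20, 9.08 and 9.36, against 8.89, 8.80 and 9.13 in HaCaT-Mock (0.27, 0.013). BAX was 8.24, 8.01 and 8.02, against 7.92, 7.70 and 7.67 in HaCaT-Mock (0.48, 0.0097), and without the arrays against their label the BAX difference was 0.36 (0.072). BIK lost its call without HaCaT-HRAS replicate 1 or 3 or HaCaT-Mock replicate 2 (up to 0.12), and BAX without HaCaT-HRAS replicate 3 (0.058) or HaCaT-Mock replicate 3 (0.1). Within batch J the differences were 0.56 for BCL2L1, 0.32 for BAX and 0.29 for BIK, and there BAX (0.4) and BIK (0.15) did not pass. KRT5 fell by 1.01 in this comparison, and its part was not tested. In HaCaT-EGFR (0.698% of all genes) and HaCaT-PIK3CA (0.162%) no member passed, with differences between -0.17 and 0.19 and between -0.14 and 0.27 (limma, 1846 and 1863 genes with an unadjusted p under 0.05).

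The same contrasts among scramble siRNA arrays share no array with those under PBS. BCL2L1 was 8.93, 8.99 and 9.53 in HaCaT-HRAS, against 8.51, 8.64 and 8.96 in HaCaT-Mock (0.44, adjusted p = 3e-04), and BIK again lay higher (0.26, 0.016), 2 of 9 members where 14.9% of all genes passed. BIK lost its call without HaCaT-Mock replicate 1 or 3 or HaCaT-HRAS replicate 3 (up to 0.11). BCL2L1 differed by 0.38 in batch J and 0.56 in batch M, and in batch J alone neither BCL2L1 (0.07) nor BIK (0.34) passed, nor did they in a model without the batch (0.22 and 0.12). BMF (0.33, 0.053) and BAX (0.20, 0.4) did not pass. Without the arrays against their label BMF passed at the same difference (0.33, 0.039). None of those arrays is in this comparison, so only the spread of the shared model changed. BMF differed by 0.56 in batch J and by -0.13 in batch M, which held 1 array per line. For BCL2L1, 3 of 4 probe sets lay higher in HaCaT-HRAS under PBS (0.31 to 0.68, 2 passed) and 1 at -0.06. HaCaT-EGFR (2.38% of all genes) and HaCaT-PIK3CA (0.0303%) again had no member past the threshold by limma (2327 and 1098 genes with an unadjusted p under 0.05).

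Other genes of apoptosis were described by list. In HaCaT-HRAS against HaCaT-Mock under PBS, where 16.1% of all genes passed, 4 of 13 other BCL2 family genes rose and 1 fell (median 0.112, all genes -0.00356), led by BCL2A1, an anti-apoptotic member (1.98, adjusted p = 1.1e-13), with BNIP3L (0.35) and BID, which links death receptors to BAX (0.28). Of 9 death receptor genes 3 rose and none fell, the caspase-8 inhibitor CFLAR (0.59) and the TRAIL receptors TNFRSF10B (0.61) and TNFRSF10A (0.61). USP9X, which removes ubiquitin from MCL1, fell by 0.59 as 1 of 8 turnover enzymes. Of 8 caspase cascade genes 1 rose (CASP9, 0.22) and 1 fell (CASP6, -0.38), and of 5 IAP genes BIRC5 fell (-0.39).

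Under the inhibitors over the 4 lines, where 39.2% of all genes passed, 4 of 13 other family genes rose and 3 fell (median -0.00213, all genes -0.00539), among them BNIP3, a mitophagy receptor (-1.05), HRK, a BH3-only protein (0.71), and BNIP3L (-0.24). Of 11 transcription factors known to act on BH3-only genes 6 rose and 2 fell (median 0.132), with STAT3 (0.46), FOXO3 (0.33) and FOXO1 (0.28) having the lowest adjusted p. FOXO3 and FOXO1 responded less in HaCaT-HRAS than in HaCaT-Mock (-0.43 and -0.45). Of 9 death receptor genes 4 rose and 3 fell, with TNFRSF1A at 0.47, FADD at -0.40 and TNFRSF10B at -0.46. Caspase cascade genes numbered 3 up and 2 down of 8 (CASP9 0.27, CYCS -0.30, ENDOG -0.16), IAP genes 1 up and 2 down of 5 (BIRC2 0.29, BIRC5 -0.21, BIRC6 -0.08), and turnover enzymes 3 up and 1 down of 8 (USP9X 0.22, USP13 -0.32, TRIM2 0.16).

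With siEGFR, where 28.4% of all genes passed over the 4 lines, 3 of 13 other family genes rose and none fell, BNIP3L (0.53), BNIP3 (0.33) and HRK (0.25). APAF1, the scaffold of the apoptosome, rose by 0.60 and CYCS by 0.28, while 4 of 9 death receptor genes fell and none rose (TNFRSF10B -0.63, TNFRSF10A -0.63, FADD -0.15). Of the turnover enzymes BTRC fell (-0.45) and TRIM2 (0.37) and USP9X (0.14) rose. Among the scramble siRNA arrays with inhibitors, BNIP3 (-0.74) and BCL2L12 (-0.37) fell, HRK (0.28), FOXO1 (0.33) and FOXO3 (0.19) rose, and JUN fell (-0.46).

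**Figure D4:**
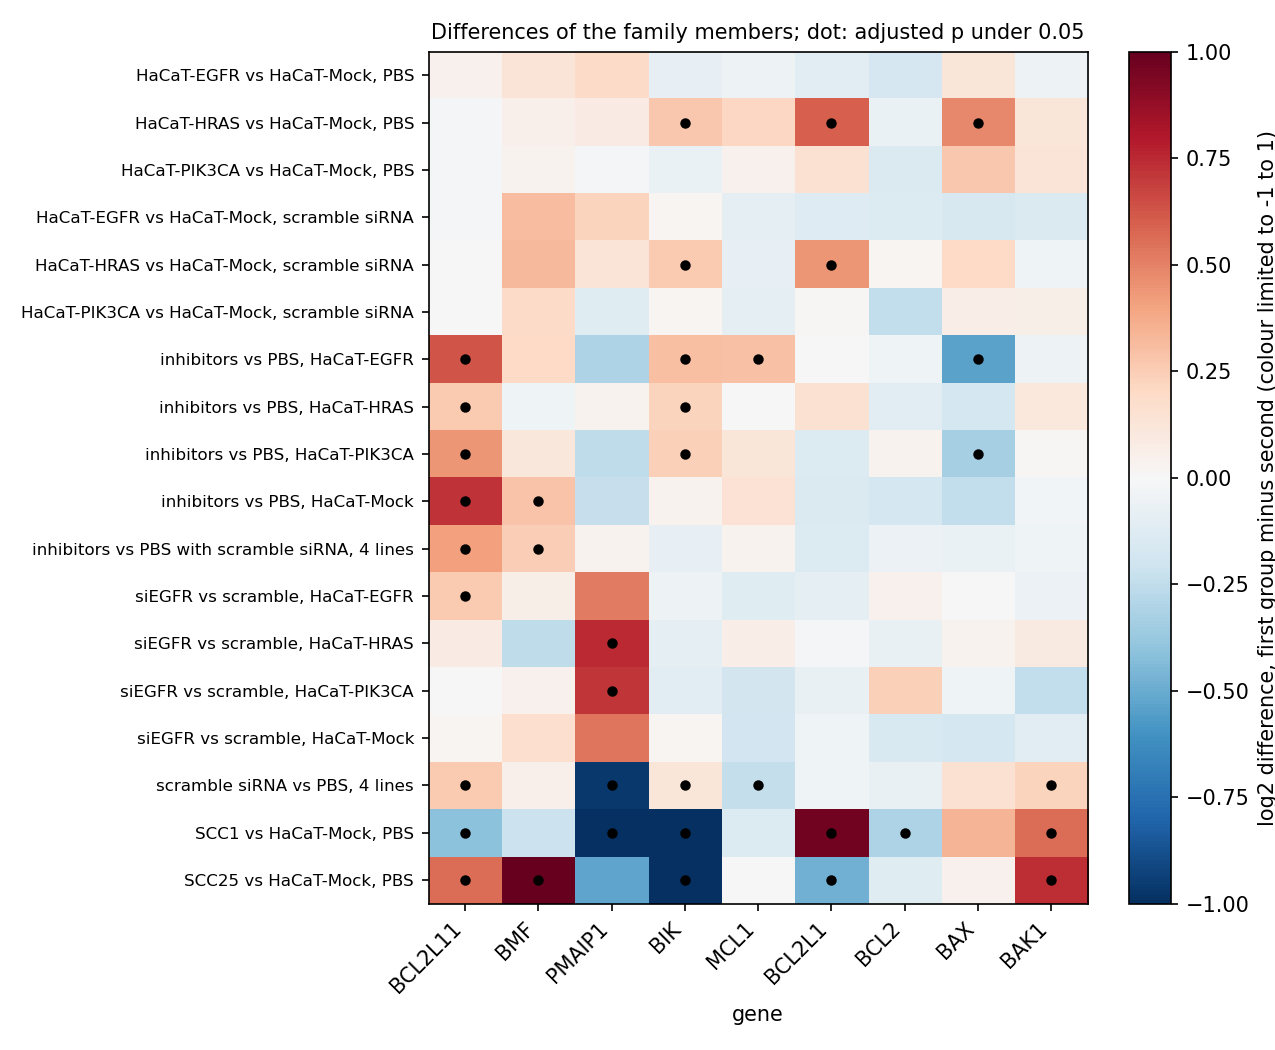
Log2 difference of the 9 measured members (columns) in 18 comparisons (rows, first named group minus second), red for higher and blue for lower in the first group, with the colour limited to differences from -1 to 1. Dots mark an adjusted p under 0.05. BCL2L11 is red with a dot in all rows of inhibitors against PBS, and PMAIP1 is at 0.52 or higher in the 4 rows of siEGFR.

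The carcinoma lines were set against HaCaT-Mock under PBS in a model of 95 arrays. In SCC1 6 of 9 members passed (37.4% of all genes). BCL2L1 was 9.39 and 10.02 in SCC1, against 8.54, 8.57 and 8.68 in HaCaT-Mock (0.97, adjusted p = 2.6e-11), and BAK1 was 7.84 and 8.33, against 7.47, 7.43 and 7.57 (0.56, 9.3e-05). PMAIP1 was 8.30 and 7.83, against 10.35, 10.35 and 8.86 in HaCaT-Mock (-2.03, 3.4e-11), and BIK was 7.78 and 7.86, against 8.89, 8.80 and 9.13 (-1.15, 7.5e-17). BCL2L11 (-0.41, 8.9e-05) and BCL2 (-0.31, 0.028) also lay lower, though the BCL2 call was lost on leaving out either SCC1 array (up to 0.17) or HaCaT-Mock replicate 2 or 3. For BCL2L11 the probe sets disagreed in SCC1, from -0.41 to 0.82, and BCL2 did not pass without the arrays against their label (-0.23, 0.16) and had a probe set at 0.53. Within batch J the differences in SCC1 were 0.84 for BCL2L1, 0.39 for BAK1, -2.04 for PMAIP1, -1.07 for BIK and -0.35 for BCL2L11, and BAK1 did not pass there (0.12).

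In SCC25 5 of 9 members passed (42.2% of all genes). BMF was 6.91 and 7.32 in SCC25, against 5.51, 5.56 and 5.79 in HaCaT-Mock (1.501 ± 0.135, adjusted p = 1.9e-14), the largest rise of a member over the 33 comparisons. BAK1 was 8.02 and 8.51, against 7.47, 7.43 and 7.57 (0.74, 4.2e-07), and BCL2L11 8.33 and 8.07, against 7.77, 7.62 and 8.07 (0.56, 2.5e-07), with the lower SCC25 array at the level of the highest HaCaT-Mock array. BIK was 7.36 and 7.42, against 8.89, 8.80 and 9.13 (-1.57, 1.4e-22), and BCL2L1 8.11 and 8.41, against 8.54, 8.57 and 8.68 (-0.48, 1.4e-04). PMAIP1 did not pass (-0.53, 0.054) but did without the arrays against their label (-0.66, 5.4e-04). BCL2L1 lay lower with all 4 of its probe sets (-0.64 to -0.12, 3 passed), while by the probe set rule of the study the differences were -0.12 for BCL2L1 (0.62) and 0.08 for BCL2L11 (0.76). BCL2L1 did not pass in a model without the batch (0.27) or with the replicate number as a block (0.19). Within batch J the differences in SCC25 were 1.38 for BMF, 0.57 for BAK1, 0.64 for BCL2L11, -1.49 for BIK and -0.45 for BCL2L1. FaDu of batch M and parental HaCaT cells had 1 array each, with BIK at 9.03 and 9.48, PMAIP1 at 7.74 and 10.14, BAK1 at 8.12 and 8.16 and BCL2L1 at 8.68 and 8.78, in that order of lines. Parental HaCaT cells are a single array, so their distance from HaCaT-Mock was not tested. The FaDu array of batch P, labelled as a PBS control and the only array of its batch, entered no comparison. It differed from the other FaDu array, whose label names no treatment, by more than 1 in BAX (8.75, against 7.65), BAK1 (9.32, against 8.12) and BMF (4.49, against 5.73). The ACTB 3′ signal lay 2.65 above the 5′ signal on the batch P array and 0.45 above it on the other FaDu array. The parts of this, of the batch and of the PBS label in the differences were not tested.

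Of the other family genes 5 of 13 rose and 1 fell in SCC1, where 37.4% of all genes passed (BNIP3L -1.36, BID 0.52, BAD 0.60), and 3 rose and 4 fell in SCC25, where 42.2% did (BID -1.26, BCL2L14 1.28, HRK 0.95). In SCC1 the IAP genes BIRC2 (1.25) and XIAP (1.15) and the death receptor FAS (1.4761) rose, and FOXO3 (-0.84) and USP9X (-0.97) fell. In SCC25 FADD, the death receptor adaptor (1.98), CFLAR (1.52), XIAP (0.96) and FOXO1 (1.70) rose and USP9X fell (-0.67). All 5 keratinocyte markers fell in SCC1 (KRT14 -3.03), while in SCC25 3 rose and 1 fell and the fibroblast marker COL3A1 rose by 3.24, and the part of these markers in the members' differences was not tested.

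**Figure D5:**
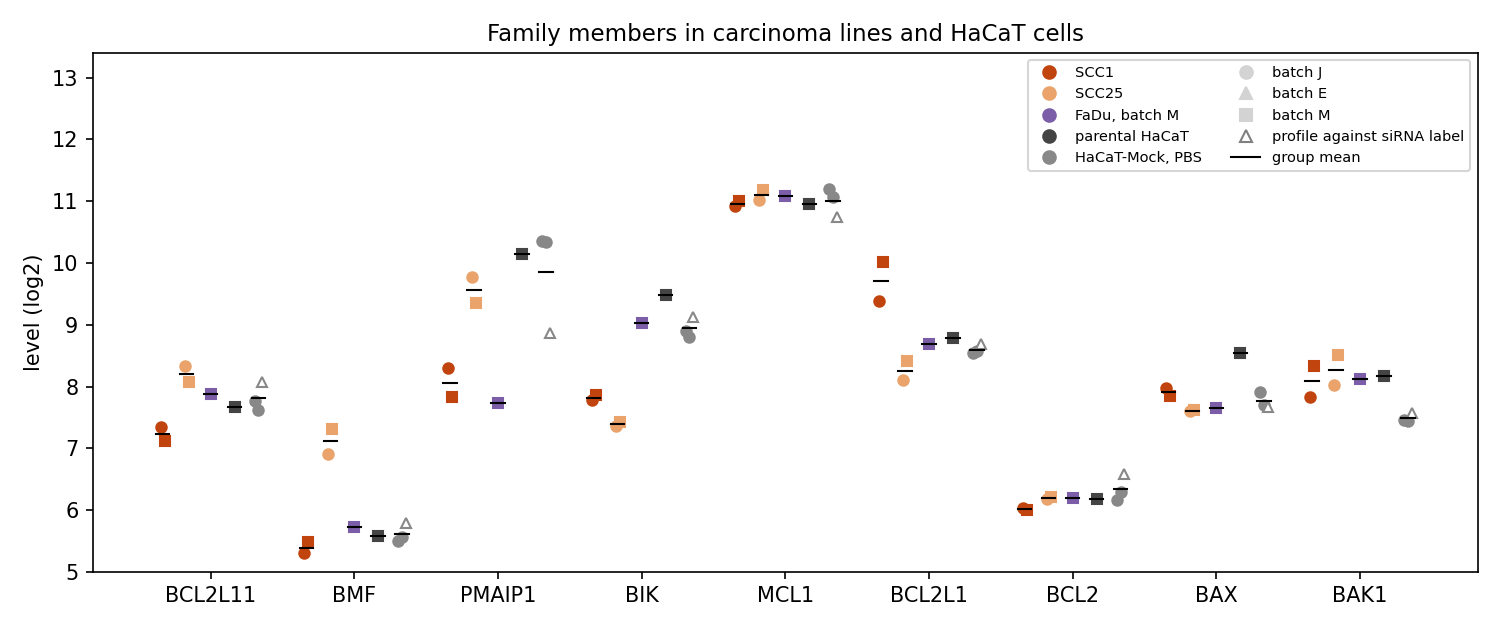
Levels (log2) of the 9 measured members in SCC1, SCC25, FaDu (batch M), parental HaCaT cells and HaCaT-Mock under PBS, 1 point per array. Symbols give the batch, the open triangle is the HaCaT-Mock array against its siRNA label, and bars are group means. BIK lies at 7.86 or lower in SCC1 and SCC25, and BMF at 6.91 and 7.32 in SCC25.

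Over the 40 groups of HaCaT arrays, group means after removal of the batch spanned 1.51 for PMAIP1, 1.35 for BCL2L1, 1.34 for BCL2L11, 1.03 for BAX, 0.98 for BMF, 0.78 for MCL1, 0.71 for BIK, 0.63 for BCL2 and 0.58 for BAK1. For every member but MCL1 the lowest or highest group had scramble siRNA with an inhibitor and held 1 array. BCL2L1, MCL1, BIK and BAK1 were highest in HaCaT-HRAS under gefitinib, the group with the lowest array weights. BCL2L11 was lowest in HaCaT-PIK3CA under PBS (7.73) and highest in HaCaT-Mock with scramble siRNA and afatinib (9.065). PMAIP1 was lowest in HaCaT-Mock with scramble siRNA and cetuximab (8.51) and highest in HaCaT-HRAS under afatinib (10.02). As a description over these 40 groups, which share lines, batches and treatments, BCL2L11 and BMF varied together (Pearson r = 0.81), as did BIK and BCL2L1 (0.82) and BAX and BAK1 (0.71), while BCL2L11 and BAX ran opposite (-0.65). The genes with the pattern most like BCL2L11 were NAGK (0.94), MFSD1 (0.94) and NOTCH1 (0.94). For BMF they were DNAI7 (0.84), FOXO1 (0.82) and RSPH1 (0.82), for PMAIP1 UQCC6 (0.96), PLEKHA8 (0.94) and PTK2 (0.94), and for BAX MYDGF (0.96), RCC1 (0.955) and AHCY (0.94). For BCL2L1 they were FXYD5 (0.945), CLTB (0.944) and ZFP57 (0.94), and for BIK TICAM1 (0.89), SLC26A11 (0.88) and TNIP1 (0.88). BCL2, whose level lay near the median gene, had no gene above 0.64 (ACRBP).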

How the data were processed

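Expression in 96 RNA samples was read on Affymetrix U133 Plus 2.0 arrays for human genes. The values deposited by the authors are log2 expression values per probe set, from 2.65 to 14.5. In the submitters' processing notes the only tool is affy, unversioned. The study's methods describe frozen RMA, a surrogate-variable batch correction and the dropping of arrays that clustered away from their group. The sources used here do not say which of these were applied to the deposited log2 values. A single gene symbol was listed for 41097 of 54675 probe sets, several symbols for 1801 and none for 11777. From those with a single symbol the probe set of highest mean level on arrays of the HaCaT constructs stood for its gene, and no filter on low values was applied. Precision is limited by how many arrays each group holds.

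A linear model of 89 HaCaT arrays with 40 groups and batch was fitted with limma 3.58.1 in R 4.3.3 (47 residual degrees of freedom), with a second model of 95 arrays for SCC1 and SCC25. P-values were adjusted over 19775 genes by Benjamini-Hochberg, with a threshold of 0.05. The fit was tested on simulated data with known changes. Members named are all of the family, at most 3 genes of each other list with the lowest adjusted p among those past the threshold, and 3 genes most like a member by Pearson r. Members and lists were chosen with earlier results of these data known. Scramble siRNA against PBS, and inhibitor against siEGFR response, were added after the values were seen, as were the fits that left out batch E or the arrays against their siRNA label. Other fits used batch J alone, no batch term, only the groups compared, the probe set rule of the study, array weights, 3 arrays in doubt left out, the replicate number as a block, quantile normalization, a filter at the median level and each array left out in turn. Figures were drawn with matplotlib 3.10.9. The labels name 2 labelling kits without saying which array had which.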

Additional observations from a re-analysis of the deposited data

Results flagged for a closer look

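The rise of BCL2L11 under the inhibitors differed between lines. It was 0.26 in HaCaT-HRAS and 0.72 in HaCaT-Mock, and the test of the difference gave -0.465 on the log2 scale (limma interaction, adjusted p = 2.6e-04). Without the 6 arrays against their siRNA label the difference was -0.46 (8.4e-06). These arrays were picked on a scale between PBS and scramble siRNA, and BCL2L11 differs between those states. The smaller p-value is thus no separate support. It was seen with 1 of 7 probe sets. No group held 4 to 10 arrays, so single arrays could not be tested as outliers within a group.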

How the results depend on the processing

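Counts of members past the threshold moved by over 1.5 times as follows, with the count of the reported fit in brackets. With array weights they were 1 (2) for inhibitors in HaCaT-HRAS, 6 (2) in HaCaT-Mock, 4 (1) for cetuximab against afatinib, 2 (1) against gefitinib, 2 (1) for the response of HaCaT-HRAS minus HaCaT-Mock, and for siEGFR 4 (1) over 4 lines, 2 (1) in HaCaT-EGFR, 2 (1) in HaCaT-HRAS, 3 (1) in HaCaT-PIK3CA and 2 (0) in HaCaT-Mock. With batch J alone they were 1 (3) for HaCaT-HRAS against HaCaT-Mock under PBS and 1 (2) with scramble siRNA, 0 (2) for inhibitors in HaCaT-HRAS, 1 (3) in HaCaT-PIK3CA, 1 (2) in HaCaT-Mock and 3 (5) over 4 lines, 3 (5) for afatinib, 0 (1) for cetuximab against gefitinib, 0 (1) for siEGFR in each construct line, 3 (5) for scramble against PBS and 3 (5) for inhibitor minus siEGFR response. With a filter at the median level, which removed BMF, they were 1 (2) for inhibitors in HaCaT-Mock, 3 (1) for cetuximab against gefitinib, 2 (1) for HaCaT-HRAS minus HaCaT-Mock, 2 (1) for siEGFR over 4 lines, 1 (0) in HaCaT-Mock and 1 (2) for inhibitors with scramble siRNA. Without a batch term they were 1 (3) and 0 (2) for HaCaT-HRAS under PBS and scramble, 0 (2) and 1 (2) for inhibitors in HaCaT-HRAS and HaCaT-Mock, and 0 (1) for cetuximab against either drug, for HaCaT-HRAS minus HaCaT-Mock and for siEGFR in each construct line. Fitting only the groups compared gave 1 (3) and 1 (2) for HaCaT-HRAS under PBS and scramble, 0 (2), 1 (3) and 4 (2) for inhibitors in HaCaT-HRAS, HaCaT-PIK3CA and HaCaT-Mock, 4 (1), 2 (1), 2 (1) and 1 (0) for siEGFR over 4 lines, in HaCaT-EGFR, HaCaT-PIK3CA and HaCaT-Mock, and 1 (2) for inhibitors with scramble siRNA. The probe set rule of the study gave 1 (3) and 1 (2) for HaCaT-HRAS, 1 (2) for inhibitors in HaCaT-HRAS, 0 (1) for cetuximab against afatinib and for HaCaT-HRAS minus HaCaT-Mock, 3 (1) for siEGFR over 4 lines, 1 (0) in HaCaT-Mock and 3 (5) for SCC25. It also turned the sign of BCL2L1 in HaCaT-HRAS (-0.0574 under PBS, -0.0543 with scramble siRNA), of BCL2L11 for scramble against PBS (-0.146) and of BCL2 in SCC1 (0.526). Quantile normalization gave 2 (1) for cetuximab against gefitinib. The cause of these shifts was not tested.

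Same-numbered arrays of batch J were compared in 15 pairs of inhibitor and PBS groups of HaCaT-EGFR, HaCaT-HRAS and HaCaT-PIK3CA (correlations of their deviations -0.165 to 0.109) and in the 4 pairs of siEGFR and scramble groups (-0.0848 to 0.0631). HaCaT-Mock inhibitor groups and the arrays with scramble siRNA and an inhibitor had too few numbered arrays in a batch for this check. The arrays are taken to share only a number. With replicate number as a block the counts were 1 (3) and 1 (2) for HaCaT-HRAS under PBS and scramble, 2 (1) for cetuximab against gefitinib, 3 (1) for siEGFR over 4 lines, 1 (0) in HaCaT-Mock and 0 (2) for inhibitors with scramble siRNA. Without 3 arrays in doubt (HaCaT-HRAS gefitinib replicates 1 and 2, HaCaT-PIK3CA afatinib replicate 1) they were 1 (2) for inhibitors in HaCaT-HRAS, 4 (1) for cetuximab against afatinib, 3 (1), 2 (1), 2 (1) and 1 (0) for siEGFR over 4 lines, in HaCaT-EGFR, HaCaT-PIK3CA and HaCaT-Mock. The following alternatives were chosen after seeing the data. Without batch E, siEGFR gave 2 (1) over 4 lines, 2 (1) in HaCaT-EGFR and 1 (0) in HaCaT-Mock. Without the 6 arrays against their label the counts were 4 (1) and 3 (1) for cetuximab against afatinib and gefitinib, 3 (1), 2 (1) and 1 (0) for siEGFR over 4 lines, in HaCaT-EGFR and HaCaT-Mock, and 1 (2) for inhibitors with scramble siRNA. For inhibitors over 4 lines the count stayed at 5 with PMAIP1 in place of BMF.

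Leaving out 1 array at a time (93 fits), the count ranged from 1 to 4 for inhibitors in HaCaT-EGFR, 0 to 2 in HaCaT-HRAS, 1 to 3 in HaCaT-PIK3CA, 1 to 2 in HaCaT-Mock and with scramble siRNA, 1 to 3 for cetuximab against either drug, 1 to 2 for HaCaT-HRAS minus HaCaT-Mock, 1 to 3 and 1 to 2 for HaCaT-HRAS under PBS and scramble, 1 to 2 for siEGFR over 4 lines and 0 to 1 in each construct line. BCL2L11 under the inhibitors over 4 lines passed in all of the fits and alternatives that gave it a value (0.423 to 0.53). The difference of its response between HaCaT-HRAS and HaCaT-Mock did not pass without a batch term (-0.391, adjusted p = 0.22) or by the probe set rule of the study (-0.17, 0.65).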
